A study of Mus musculus with 37 samples.

Results

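The major urinary protein (Mup) and serpin clade A (Serpina) clusters were followed in brown adipose tissue of male mice as 42 probe sets of 38 genes, of 41155 probe sets on the array. A probe set is the group of array probes that report on 1 transcript. The members are every probe set whose symbol is Mup or Serpina followed by a digit, 18 probe sets of 14 Mup genes and 24 probe sets of 24 Serpina genes. The pair of clusters was selected on measured values of these same arrays, the high levels in BXD70 and DBA/2J against the other strains, so those levels are given below as a description without a test. All 38 symbols are current in the RefSeq annotation of GRCm38.p6, which places the 14 Mup genes on chromosome 4, 23 of the Serpina genes on chromosome 12 and Serpina7 on chromosome X. There were 37 arrays, 1 for each of 35 BXD strains and 1 for each parent. BXD strains descend from a cross of C57BL/6J and DBA/2J and were inbred, so that each line is a fixed mosaic of both genomes. All mice were males kept on a chow diet, killed at 29 weeks after an overnight fast and perfused, and the labels name no other treatment. Each array holds RNA combined from about 5 mice of a strain, so there is no replicate within a strain, and every spread given here is a spread between strains. The C57BL/6J group, the DBA/2J group and BXD70 are therefore 1 pool each, and the remaining 34 BXD strains serve as the comparison. Values are in rescaled units, because every array was brought to the same mean, 8, and the same SD, 2, before deposit. A difference of 1 unit is close to a doubling only if the spread before rescaling was near 2 on a log2 scale, which cannot be checked here, and no folds are given.

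Major urinary proteins are small lipocalins, proteins with a barrel-shaped pocket that carries volatile pheromones, and adult male mice secrete them from the liver into the blood and excrete them in the urine. Their genes are a tandem array of close copies whose liver expression depends on growth hormone and androgen, while some copies are used in nasal, salivary and lacrimal glands. Clade A serpins are suicide inhibitors of serine proteases, secreted mostly by hepatocytes. The Serpina1 genes encode alpha-1-antitrypsin, the inhibitor of neutrophil elastase, and the Serpina3 genes encode relatives of antichymotrypsin. Some clade A serpins have become carriers, such as Serpina6, the corticosteroid-binding globulin, and Serpina7, the thyroxine-binding globulin. Serpina3n and Serpina3c are known from adipose tissue as well as liver, and Serpina12 encodes vaspin, a secreted product of white fat.

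Because both families are tandem copies, the promoters of the genes that the results turn on are shown first, as stretches of 250 bases for GRCm38.p6. By the RefSeq positions, the stretches of Mup3, Mup21, Serpina1c and Serpina1a stop at the start of the annotated gene. Those of Mup15, Mup19, Serpina3n and Serpina3c reach into it. A promoter was on hand for 25 of the 38 symbols. Capitals mark 2 short motifs on either strand: TATATA, a run like a TATA box, and TGTTCT, part of the site shared by glucocorticoid and androgen receptors. Mup15 and Mup19 are 2 of the copies that rose with liver transcripts below, and Mup3 and Mup21 are 2 that did not pass that test.
Mup15, chr4:61439705-61439954, minus strand: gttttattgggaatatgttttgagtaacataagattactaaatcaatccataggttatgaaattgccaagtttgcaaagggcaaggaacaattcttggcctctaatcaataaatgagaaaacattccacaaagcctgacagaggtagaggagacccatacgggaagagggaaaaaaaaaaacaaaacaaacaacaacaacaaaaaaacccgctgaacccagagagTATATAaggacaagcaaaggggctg
Mup19, chr4:61782225-61782474, minus strand: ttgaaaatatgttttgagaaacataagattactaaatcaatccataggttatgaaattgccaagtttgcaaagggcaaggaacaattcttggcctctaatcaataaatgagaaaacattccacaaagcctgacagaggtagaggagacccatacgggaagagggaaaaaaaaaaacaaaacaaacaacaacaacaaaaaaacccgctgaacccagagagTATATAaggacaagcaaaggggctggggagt
Mup3, chr4:62087318-62087567, minus strand: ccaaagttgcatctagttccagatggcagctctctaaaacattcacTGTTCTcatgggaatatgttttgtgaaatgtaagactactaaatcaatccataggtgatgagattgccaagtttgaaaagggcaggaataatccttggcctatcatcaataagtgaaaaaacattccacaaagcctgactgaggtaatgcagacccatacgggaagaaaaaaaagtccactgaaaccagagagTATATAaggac
Mup21, chr4:62150842-62151091, minus strand: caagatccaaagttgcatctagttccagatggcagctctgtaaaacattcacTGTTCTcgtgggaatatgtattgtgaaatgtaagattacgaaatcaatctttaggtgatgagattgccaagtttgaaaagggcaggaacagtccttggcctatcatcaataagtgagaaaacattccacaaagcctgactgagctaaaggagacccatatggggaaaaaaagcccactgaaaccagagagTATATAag

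Serpina1c is shown as the serpin that rose with the liver transcripts beside Serpina1a, which did not pass that test, and Serpina3n and Serpina3c as the pair that rose together with the fat expansion list below.
Serpina1c, chr12:103904951-103905200, minus strand: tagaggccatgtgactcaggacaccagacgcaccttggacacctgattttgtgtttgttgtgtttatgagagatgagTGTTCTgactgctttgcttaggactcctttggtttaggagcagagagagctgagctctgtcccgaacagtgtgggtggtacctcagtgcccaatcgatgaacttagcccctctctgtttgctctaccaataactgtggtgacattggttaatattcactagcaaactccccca
Serpina1a, chr12:103863620-103863869, minus strand: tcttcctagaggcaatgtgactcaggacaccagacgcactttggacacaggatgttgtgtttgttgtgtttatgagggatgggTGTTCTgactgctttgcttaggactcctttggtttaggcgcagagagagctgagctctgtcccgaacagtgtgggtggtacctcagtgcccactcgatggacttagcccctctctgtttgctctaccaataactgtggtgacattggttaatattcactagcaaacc
Serpina3n, chr12:104406458-104406707, plus strand: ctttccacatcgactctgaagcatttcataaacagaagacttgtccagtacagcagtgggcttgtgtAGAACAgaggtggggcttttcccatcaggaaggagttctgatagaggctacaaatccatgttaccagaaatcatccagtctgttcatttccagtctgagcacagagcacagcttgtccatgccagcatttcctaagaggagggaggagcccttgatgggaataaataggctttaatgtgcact
Serpina3c, chr12:104153873-104154122, minus strand: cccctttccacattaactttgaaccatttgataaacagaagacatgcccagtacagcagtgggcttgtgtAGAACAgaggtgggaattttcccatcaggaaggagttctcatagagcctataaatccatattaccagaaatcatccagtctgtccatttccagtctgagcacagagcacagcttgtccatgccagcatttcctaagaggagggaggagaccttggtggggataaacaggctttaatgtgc

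After alignment, Mup15 and Mup19 were identical at 94.1% of positions, Mup3 and Mup21 at 89.5%, and Mup15 and Mup3 at 61.3%. Mup10, which did not pass with the liver transcripts, was identical to Mup15 at 89.2% and to Mup19 at 92.5%. Mup7, which rose with them, was identical to Mup15 at 31.8% and to Mup19 at 46.4%. Among the Mup genes that rose, only Mup7, Mup15 and Mup19 had a promoter on hand. The stretches also do not all cover the same part of the gene, so these values cannot tell whether likeness follows expression. Serpina1c and Serpina1a were identical at 91.4%, and Serpina3n and Serpina3c at 90.5%. TATATA occurred in 7 of the 25 promoters on hand, all of Mup genes, against 5.2% of all 32851 promoters. TGTTCT occurred in 14 of the 25 against 16.1% of all. Also scanned, but not marked above, were TTGCNNCAA, TTCNNNGAA (N is any base) and TATAAA. They occurred in 0, 4 and 7 of the 25, against 1.7%, 7.0% and 12.4% of all. These matches describe the letters only. Probe sets of close copies may share probes, which was not tested, so the signal of a probe set is not certain to come from 1 copy. The 15 pairs of Serpina1a to Serpina1f probe sets had r of -0.18 to 0.44 over 34 strains, with a median of 0.04. Among them only Serpina1e, at 8.17, had a mean above the background limit given below. Low r between dim probe sets cannot tell whether these copies vary separately. Names of Mup genes have also changed over the years, so that a symbol of the array table may stand for another copy than the current gene of that name.

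The tissue carried its defining markers in every array. Ucp1, the uncoupling protein of brown fat, lay between 14.82 and 15.69 over the 34 strains. The mean of 14 liver transcripts, among them Alb, the gene of serum albumin, was 11.32 in BXD70 and 9.76 in DBA/2J, but 7.48 in C57BL/6J and 7.18 to 8.04 in the 34 strains. All 14 were higher in BXD70 and in DBA/2J than in any of the 34 strains. The mean of 5 kidney transcripts showed no such difference in level, with 7.35 in BXD70 and 7.32 in DBA/2J inside the range of 7.20 to 7.70. BXD70 also exceeded all 34 strains on the inflammatory fat list, at 10.65 against at most 10.38 (Saa3 at 9.24 against 8.84), and narrowly on the brown fat list, at 13.33 against 13.32 (Ppargc1a at 13.26 against 12.70), which DBA/2J did not, at 9.89 and 12.87. Liver cells carried along and liver genes switched on in fat cannot be told apart in a bulk sample, nor can more cells of a type and more RNA per cell, and their part in the results below was not tested. Background was set at 7.94, the 95th percentile of 1128 olfactory receptor probe sets, which are silent genes in this tissue.

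In BXD70, 25 of the 42 members were above all 34 other strains, 15 Mup and 10 Serpina probe sets, where 3.15% of all probe sets were. In DBA/2J, 21 members were above all 34 strains, 14 Mup and 7 Serpina probe sets, against 1.47% of all, and 20 members were so in both. Since these levels chose the members, the counts are a description. The margin was at least 1 unit for 16 members in BXD70 and 15 in DBA/2J. For this margin, and for the 20 members above in both arrays, no share of all probe sets is given. Those counts are therefore not compared with the rest of the array. In C57BL/6J no member was above all 34 strains, against 3.37% of all probe sets.

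A set of 11 Mup probe sets, of Mup1, Mup7, Mup8, Mup12, Mup13, Mup15 and Mup19, is called the block. It was defined as the Mup probe sets that rose with the liver list over the 34 strains in the fit below. These 11 probe sets also had the highest Mup values in BXD70 and in DBA/2J. They lay between 13.76 and 14.87 in BXD70 and between 13.30 and 14.70 in DBA/2J. Mup15 was at 14.87 in BXD70, 14.70 in DBA/2J and 11.06 in C57BL/6J, and at 8.10 to 11.57 with a median of 9.08 in the 34 strains. Mup12, the dimmest of the block, was at 13.76 in BXD70, 13.30 in DBA/2J and 8.65 in C57BL/6J, and at 6.83 to 9.11 with a median of 7.59 in the 34 strains. For each of these 11 probe sets, BXD70 and DBA/2J stood clear of the 34 strains and close to each other. Across the block DBA/2J was 0.17 to 0.46 units below BXD70, while the liver list mean was 9.76 in DBA/2J and 11.32 in BXD70.

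Outside the block the order of the pair varied from member to member. Mup3, a liver copy, was at 13.46 in BXD70, 11.63 in DBA/2J and 7.27 in C57BL/6J, and at 5.98 to 8.39 with a median of 6.97 in the 34 strains. Mup20, which encodes darcin, the pheromone protein of male urine, was at 10.26 in BXD70 but 11.21 in DBA/2J, against 7.95 in C57BL/6J and 6.33 to 7.99 with a median of 7.06 in the 34 strains. Mup10 was at 9.66 in BXD70, 8.73 in DBA/2J and 8.18 in C57BL/6J, with 6.32 to 8.40 and a median of 7.10 in the 34 strains. Mup20 was thus higher in DBA/2J than in BXD70 by 0.95 units, and Mup3 and Mup10 were lower. Mup4, Mup5 and Mup6 were at most 6.36 in any array. Mup21 was at 5.44 in BXD70 against at most 4.78 elsewhere in the BXD strains and 4.38 in DBA/2J, all below background.

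**Figure D1:**
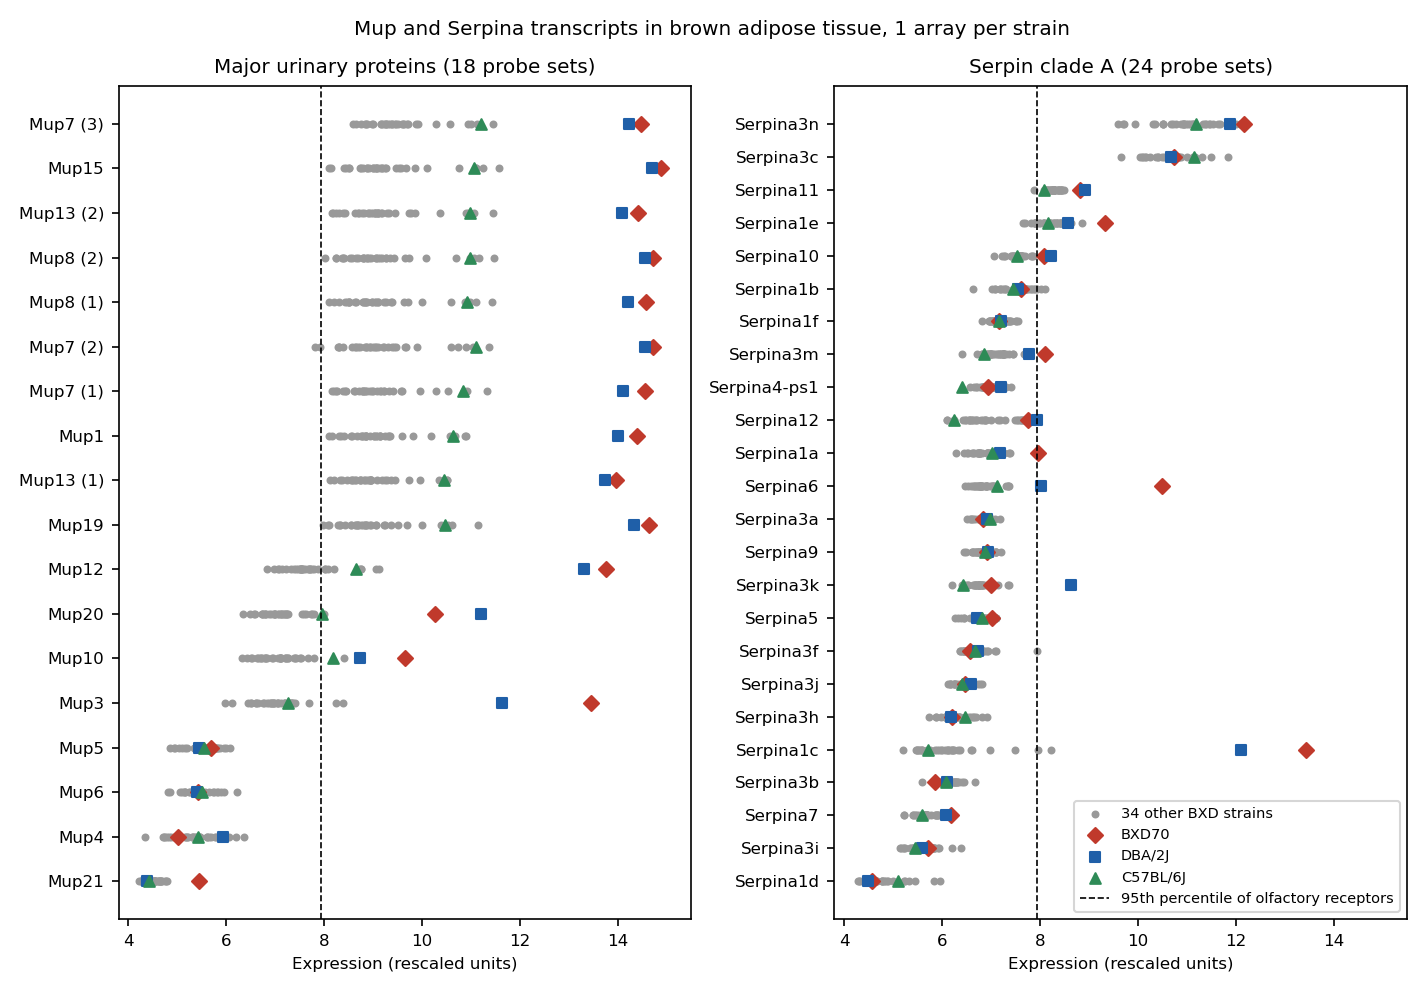
Expression of the 18 Mup and 24 Serpina probe sets on 37 arrays, in rescaled units on the x axis, with 1 grey point for each of the 34 other BXD strains, a red diamond for BXD70, a blue square for DBA/2J, a green triangle for C57BL/6J and a dashed line at the background limit of 7.94; numbers in brackets tell probe sets of 1 gene apart. BXD70 and DBA/2J lie above 13.30 in the 11 probe sets of the Mup block, where the 34 strains reach at most 11.57.

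Among the serpins, Serpina1c stood farthest out. Serpina1c, an alpha-1-antitrypsin copy, was at 13.44 in BXD70, 12.11 in DBA/2J and 5.72 in C57BL/6J, and at 5.20 to 8.23 with a median of 6.03 in the 34 strains. Serpina6, the corticosteroid carrier, was at 10.50 in BXD70 and 8.01 in DBA/2J, against 7.12 in C57BL/6J and 6.47 to 7.36 in the 34 strains. BXD70 exceeded the highest of the 34 strains by 5.21 units for Serpina1c and by 3.14 units for Serpina6, and DBA/2J by 3.87 and 0.65 units. Serpina3k was the exception in the other direction, at 8.63 in DBA/2J but 6.995 in BXD70, which lay inside the range of 6.21 to 7.36 of the 34 strains. Serpina3m, its neighbour, was higher in both, at 8.10 in BXD70 and 7.78 in DBA/2J against at most 7.67. The other Serpina1 copies differed little, with Serpina1e at 9.33 in BXD70, 8.57 in DBA/2J and 7.66 to 8.86 in the 34 strains, and Serpina1a at 7.97, 7.18 and 6.29 to 7.40. Serpina1b and Serpina1d were inside the range of the 34 strains in both arrays, at 7.60 and 4.58 in BXD70. Small margins in BXD70 and DBA/2J were seen for Serpina10, an inhibitor of coagulation factor X with protein Z, at 8.09 and 8.22 against at most 7.85, and for Serpina11 at 8.82 and 8.93 against at most 8.49.

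The spread over the 34 remaining strains was not used to choose the members. The mean over these strains was above background for 14 of the 42 members, against 47.3% of all probe sets. These 14 were 10 probe sets of the Mup block, all but Mup12, with Serpina3n, Serpina3c, Serpina1e and Serpina11. The median range, highest minus lowest strain, was 1.52 units over the 42 members, 2.60 over the 18 Mup and 1.13 over the 24 Serpina probe sets, against 0.89 over all probe sets. Over the 14 members above background it was 3.01 units, against 0.82 over all 19456 probe sets above background. The median range of the members fell to 0.97 units when taken from the 5th to the 95th percentile of the strains. The 5 widest ranges were those of Mup7, Mup15, Mup8 with both of its probe sets, and Mup13, at 3.29 to 3.56 units. The block ranged from 2.28 units for Mup12 to 3.56 for Mup7, and Serpina1c, at 3.04 units, was wider than some of its probe sets. Mup15 was lowest in BXD49 at 8.10, and highest in BXD75 at 11.57, BXD85 at 11.25, BXD90 at 11.11, BXD66 at 11.10 and BXD55 at 10.75. The next strain, BXD83, followed at 10.10, and the gap of 0.64 units below BXD55 was the largest between neighbouring strains for this probe set.

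Covariation with the liver list over these 34 strains was fitted with limma across all probe sets, with the list mean as a continuous covariate. Only 5 of the 14 list genes, Alb, Apoa1, Apoa2, Vtn and Ttr, had a mean above background in these strains. Alb varied most, with an SD of 1.02 units against at most 0.33 for the other list genes. With Alb taken out of the list, the count of members that passed was still 12. Of the 42 members, 12 rose with the liver list and none fell, where 0.0365% of all probe sets rose, which is 15 in all. The 12 were Serpina1c and 11 Mup probe sets, which make up the block by its definition. The remaining 3 of the 15 were Fabp1, the fatty acid carrier of hepatocytes, Mug1, a liver-made protease inhibitor, and Gm2083, a further probe set within the Mup cluster that the rule left out by its name. Serpina1c rose by 2.88 ± 0.34 units (slope ± SE, n = 34 strains) per unit of the list mean, with an adjusted p of 5.38e-06 by limma. The steepest Mup slope was that of a Mup8 probe set at 3.72 ± 0.46 units (n = 34 strains, limma adjusted p of 1.16e-05), and the shallowest that of Mup12 at 2.35 ± 0.30 units (limma adjusted p of 1.34e-05). Pearson's r with the liver list was 0.82 for Serpina1c (Spearman's rho 0.61) and 0.81 for this Mup8 probe set (rho 0.68), each r with a permutation p of 1e-05, the smallest that 100000 permutations can give, and rho with permutation p of 0.00019 and 4e-05. Without BXD66 and BXD90, the 2 strains farthest from the median of the list, r was 0.64 and 0.75.

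Leaving out any 1 of the 34 strains kept all 12 calls, with an adjusted p of 0.00302 at most. Leaving out the 3 strains with the highest liver list together, an alternative chosen after seeing the data, left 3 calls, both Mup8 probe sets and Mup15. The slopes of the block were then 2.08 to 3.90 units, against 2.35 to 3.72 with all 34 strains, while that of Serpina1c fell from 2.88 to 1.70 units (limma adjusted p = 0.186). The 30 members that did not pass included 3 with an unadjusted p under 0.05, namely Mup20, Mup3 and Serpina6. Mup20 had a slope of 1.16 ± 0.29 units (adjusted p = 0.231), Mup3 of 1.41 ± 0.36 (adjusted p = 0.265) and Serpina6 of 0.56 ± 0.18 (adjusted p = 0.48), all by limma over 34 strains. With Alb alone in place of the list, Mup20 passed as well, which made 13 calls. Including BXD70 and both parents raised the count to 21, but those arrays were used to choose the members.

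**Figure D2:**
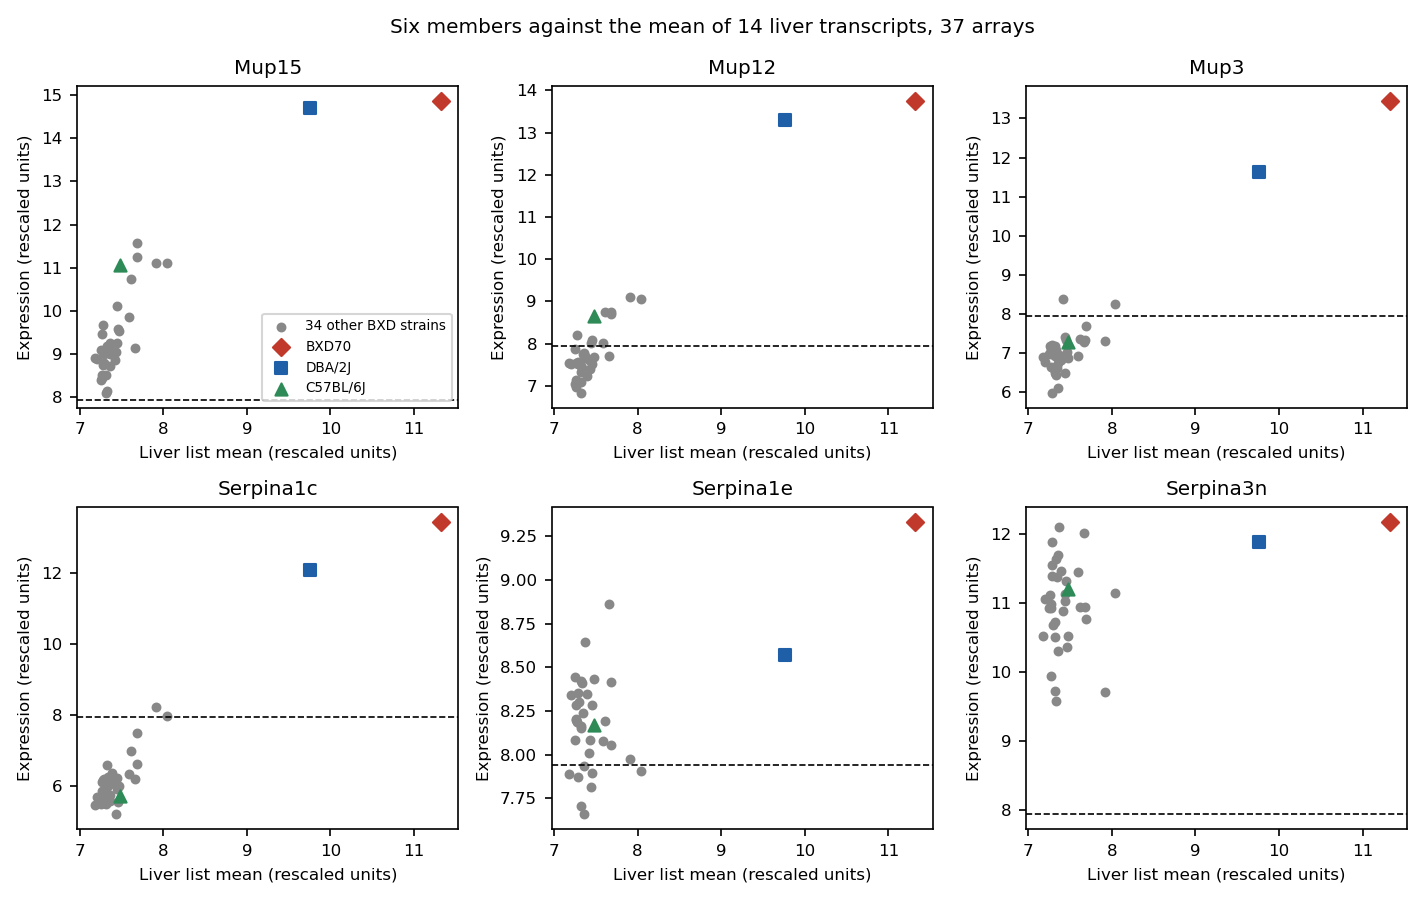
Expression of Mup15, Mup12, Mup3, Serpina1c, Serpina1e and Serpina3n on the y axis against the mean of 14 liver transcripts on the x axis, both in rescaled units, for the 34 other BXD strains in grey, BXD70, DBA/2J and C57BL/6J, with the background limit of 7.94 dashed; the y axes differ. Mup15, Mup12 and Serpina1c climb with the liver list within the grey points, and C57BL/6J lies above the grey points of a like liver list value for Mup15 and Mup12.

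The block moved nearly as 1 transcript across the strains. The 55 pairs among its 11 probe sets had r of 0.916 to 0.995, with a median of 0.987 (n = 34 strains). These values are a description, since the copies may share probes, which was not tested. The block was also chosen on these same strains, by its rise with the liver list. Serpina1c, which lies on another chromosome and passed the same fit, had r of 0.66 to 0.72 with the block. For Mup20 r was 0.49 to 0.56, for Mup10 0.54 to 0.66 and for Mup3 0.35 to 0.41. Serpina3n was near 0 with the block, at -0.07 to 0.08.

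**Figure D3:**
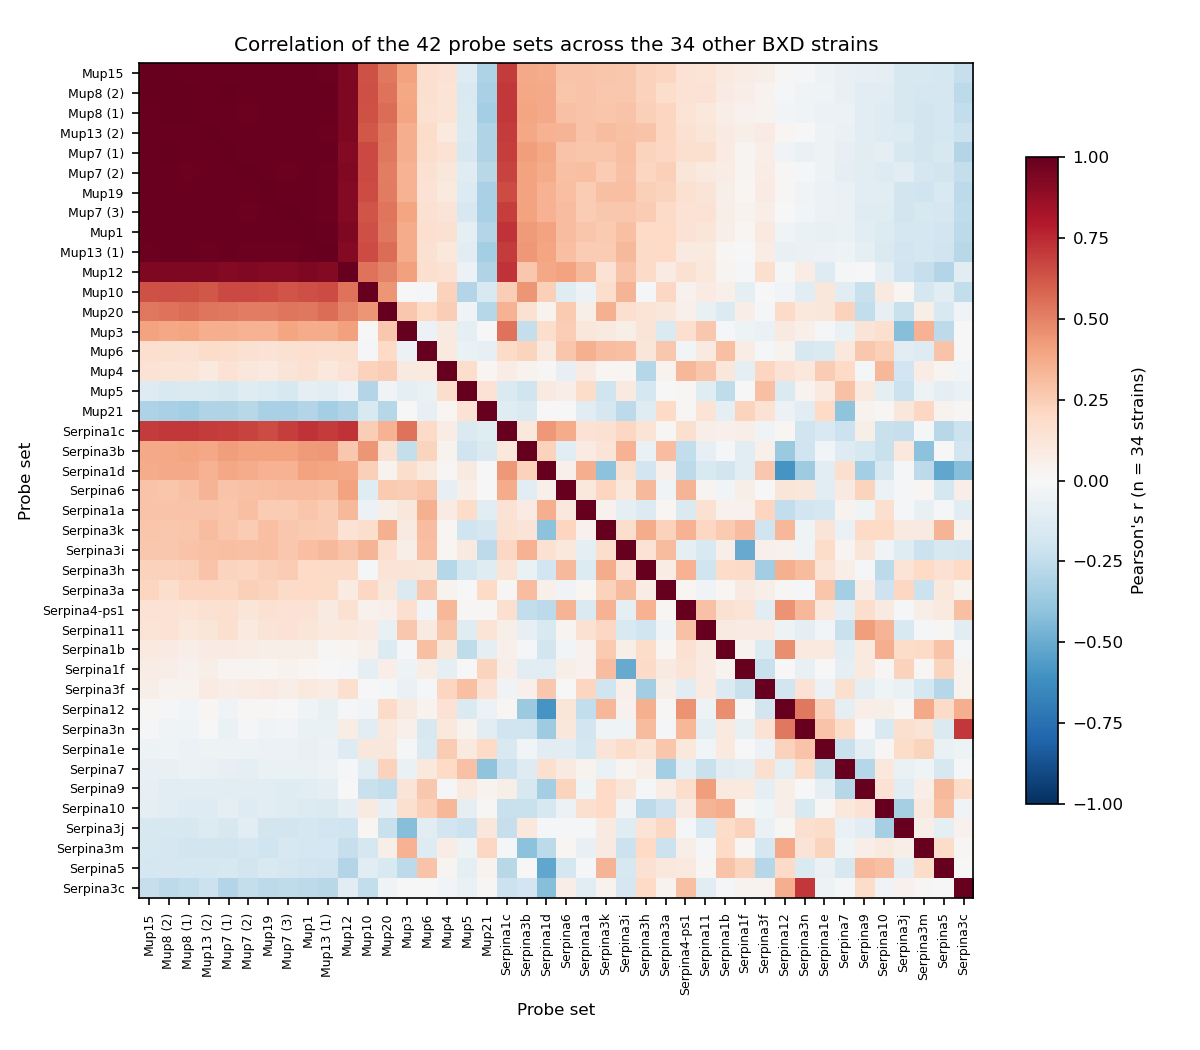
Pearson's r of each pair of the 42 probe sets over the 34 other BXD strains, from blue at -1 to red at 1, with the Mup and then the Serpina probe sets each in order of their r with Mup15. The 11 probe sets of the Mup block form a square of r from 0.916 upward, with Serpina1c the nearest of the serpins and Serpina3n and Serpina3c a pair of their own.

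Single strains showed where the block and the liver markers parted. BXD66 had the highest liver list at 8.04, with Alb at 11.16, Serpina1c at 7.96 and a median of the Mup block of 10.74. BXD75 had the highest median of the block, 11.37, with a lower liver list of 7.68, Alb at 9.90 and Serpina1c at 6.62. BXD84 had a median of the block of 9.62 with Alb at 7.51, below the background limit, and Serpina1c at 5.52. Alb was above the background limit in 13 of the 34 strains, Mup15 in all 34 and Serpina1c in 2. Probe sets differ in their brightness per transcript, so levels of different genes are not set against each other beyond this limit.

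C57BL/6J was the clearest case. Its median over the block was 10.91, and only BXD75 and BXD90 of the 34 strains were higher. Its liver list of 7.48 was exceeded by 7 of the 34 strains, its Alb was 8.76 and its Serpina1c of 5.72 ranked 25th of 35. The 11 probe sets of the block lay 0.76 to 1.68 units above the line fitted on the 34 strains, or 2.18 to 3.27 residual standard deviations, whereas Serpina1c lay 0.59 units below its line. Mup10 and Mup20 were above their lines too, by 1.08 and 0.79 units. With 1 array of this parent, this is a description without a test. Between the parents, the widest differences of all members were those of Serpina1c at 6.39 units, Mup12 at 4.66 and Mup3 at 4.36, whose means over the 34 strains were below background. Among the 14 members above background the widest were all of the block, from 3.87 units for Mup19 to 3.37 for Mup1 among the top 5, DBA/2J being higher. The narrowest were Serpina3c, which was lower in DBA/2J by 0.46 units (10.68 against 11.14), Serpina1e at 0.40, Serpina3n at 0.69, Serpina11 at 0.85 and the third Mup7 probe set at 3.02.

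Serpina3n and Serpina3c had another pattern, with high levels in every array. Serpina3n, an inhibitor of granzyme B and leukocyte elastase, was at 9.59 in BXD95 to 12.09 in BXD79 with a median of 10.97 over the 34 strains, at 12.17 in BXD70, 11.88 in DBA/2J and 11.20 in C57BL/6J. Serpina3c was at 9.65 in BXD90 to 11.83 in BXD68 with a median of 10.62, at 10.74 in BXD70, 10.68 in DBA/2J and 11.14 in C57BL/6J. Neither gene stood out in BXD70 or DBA/2J beyond 0.08 units, and r with the liver list was -0.03 for Serpina3n (permutation p = 0.873) and -0.15 for Serpina3c (permutation p = 0.377) over 34 strains. Their own r across the 34 strains was 0.70.

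Both rose with the fat expansion list, the mean of Lep, Mest, Sfrp5 and Bmp3, which are transcripts known to climb as fat depots grow. Serpina3n rose by 0.64 ± 0.13 units (slope ± SE, n = 34 strains) per unit of that list, with a limma adjusted p of 0.00162, and Serpina3c by 0.41 ± 0.09 units with a limma adjusted p of 0.00598. They were the only 2 of the 42 members to do so, where 2.52% of all probe sets rose, so the count itself is near the share of all probe sets. Pearson's r was 0.65 and 0.60 (rho 0.61 and 0.46), with permutation p of 5e-05 and 0.00016 for r and 0.00014 and 0.0066 for rho. Without BXD61 and BXD96 r was 0.58 and 0.56. Macrophage transcripts moved with the same list: all 5 of the macrophage list rose, the list means had r of 0.68 over the 34 strains, and their part in the 2 serpins was not tested.

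Serpina3n also rose with the skeletal muscle list, whose 8 contractile transcripts ranged from a mean of 10.01 in BXD65 to 13.62 in BXD97. Its slope was 0.47 ± 0.10 units per unit of the muscle list (n = 34 strains, limma adjusted p of 0.00197), and 1.49% of all probe sets rose. Pearson's r was 0.64 and rho 0.71 (permutation p of 3e-05 and 1e-05), and r was 0.67 without BXD65 and BXD95. Serpina3c had r of 0.36 (permutation p = 0.035) and did not pass in the fit (limma adjusted p = 0.352). Without BXD65 alone, the strain with the least muscle transcript, it did pass (adjusted p = 0.0402), so its call depended on this strain.

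**Figure D4:**
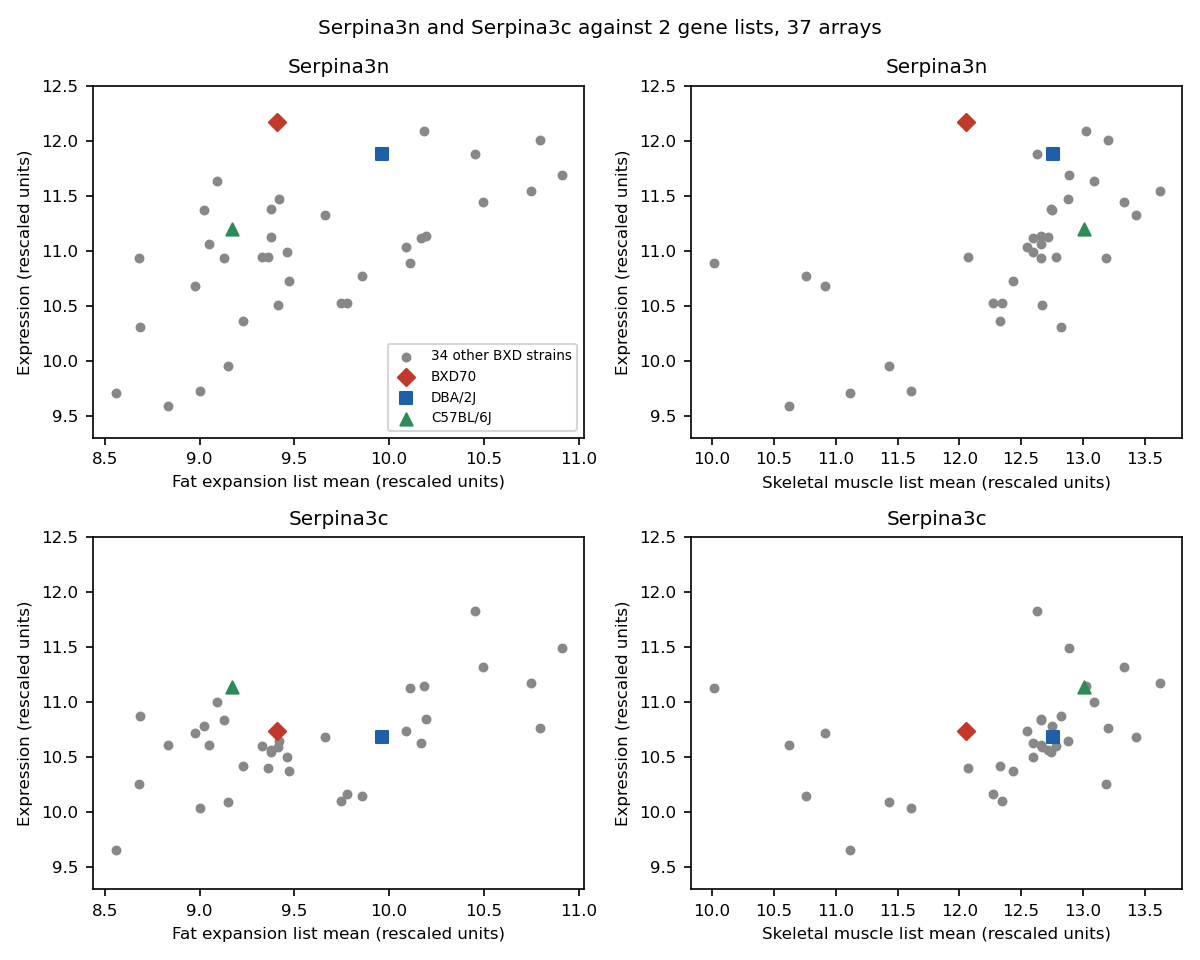
Expression of Serpina3n (top) and Serpina3c (bottom) against the fat expansion list (left) and the skeletal muscle list (right), all in rescaled units, with the 34 other BXD strains in grey, BXD70, DBA/2J and C57BL/6J. Both serpins climb with the fat expansion list, at r of 0.65 and 0.60 over the 34 strains, and BXD70 and DBA/2J lie within the range of the list.

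No member passed in 5 other limma fits over the 34 strains. With the lymphocyte list, 0 members passed, against 0.129% of all probe sets, and 3 members had an unadjusted p under 0.05. With the interferon list 0 passed (0.0656% of all) and 5 were under the unadjusted limit. For the inflammatory fat list of Saa3, Lcn2, Hp and Cp it was 0 (3.08%) and 3. For the glucocorticoid list it was 0 (0.0146%) and 2, and for the brown fat list 0 (1.47%) and 1. These percentages hold for the adjusted threshold only. No share of all probe sets is given for the unadjusted p, so the unadjusted counts cannot be set against them. Serpina3n, whose gene is known to respond to glucocorticoids, was among those with an unadjusted p under 0.05 for the glucocorticoid list. Nearest to the threshold was Serpina3f with the lymphocyte list, with a slope of 1.06 ± 0.24 units and a limma adjusted p of 0.0531. Serpina3f was at 7.94 in BXD80, the next strain was at 7.10, and BXD80 also had the highest lymphocyte list mean, 7.91. None of the 34 strains exceeded the background limit for Serpina3f. It passed in 8 of the 34 refits that each left out 1 strain, and BXD80 was kept in all 8. Serpina3c passed with the inflammatory fat list only without BXD85 (adjusted p = 0.0163 against 0.117).

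Serpina12, the vaspin gene, was dim but varied between strains. It was at 7.95 in DBA/2J and 7.77 in BXD70, just above all 34 strains, which lay between 6.10 and 7.75 with a median of 6.82, and at 6.25 in C57BL/6J, lower than 31 of the 34. None of the 35 BXD strains exceeded the background limit. Serpina4-ps1, a pseudogene of the kallistatin group, had the lowest value of all arrays in C57BL/6J, 6.42, with 6.58 to 7.41 in the 34 strains and 7.20 in DBA/2J. Mup10 was at 8.40 in BXD83 with the next strain at 7.80, and Mup3 was at 8.39 in BXD65 and 8.25 in BXD66 with the next strain at 7.68. The remaining members, Serpina1f, Serpina3a, Serpina3b, Serpina3h, Serpina3i, Serpina3j, Serpina5, the inhibitor of activated protein C, Serpina7, the thyroxine carrier, and Serpina9, a serpin of germinal centre B cells, had means below background and ranges of 0.68 to 1.23 units.

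**Figure D5:**
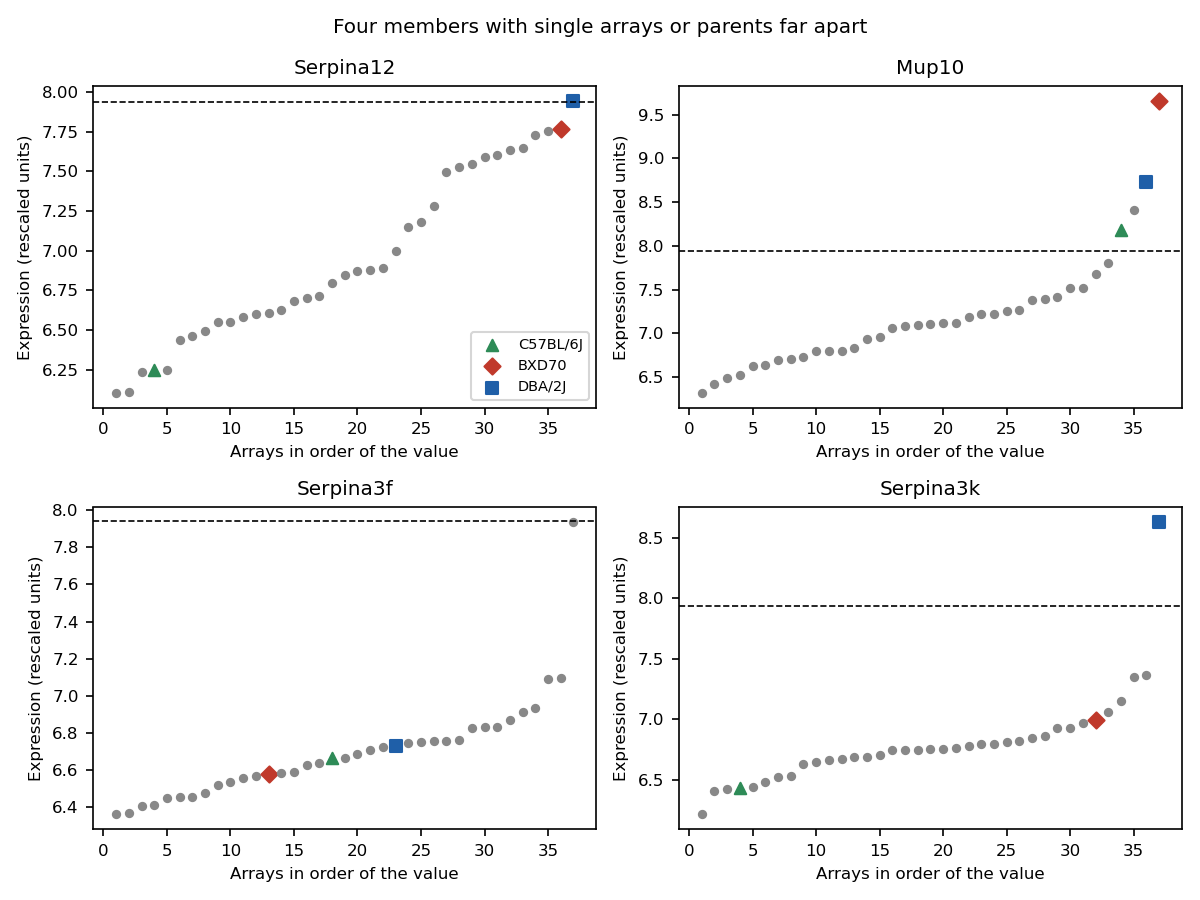
Expression of Serpina12, Mup10, Serpina3f and Serpina3k in rescaled units on the y axis, with the 37 arrays in order of their value on the x axis, BXD70 as a red diamond, DBA/2J as a blue square, C57BL/6J as a green triangle, the other BXD strains in grey and the background limit of 7.94 dashed. DBA/2J is alone at 8.63 for Serpina3k, and BXD80 alone at 7.94 for Serpina3f.

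Relatives outside the clusters were counted for comparison. Of 12 serpins of other clades, 0 rose or fell with the liver list in limma (2 at an unadjusted p under 0.05), and of 8 other lipocalins 0 (0 unadjusted). Serpind1, the gene of heparin cofactor II, was nevertheless at 10.60 in BXD70 and 8.82 in DBA/2J with a median of 7.43 in the 34 strains, and Serpinf2, the antiplasmin gene, at 10.64 and 9.08 with a median of 7.79. With the fat expansion list, Serpinf1 and Serping1 rose among these serpins, as did 2 of the 8 lipocalins, Lcn2 and Orm2, and 2 of 8 protease genes, the mast cell proteases Mcpt4 and Cma1. Of 10 genes of factors and receptors known to regulate Mup and Serpina genes in liver, among them Hnf4a, Stat5b, Ghr and Zhx2, 0 passed with the liver list in limma (0 unadjusted) and 0 with the fat expansion list (3 unadjusted).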

How the data were processed

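For each strain 100 ng of the combined RNA was amplified, and 5500 ng of the resulting cDNA went onto an Affymetrix MoGene 2.0 array. The deposited table has 41345 probe sets and 37 arrays, and its values are scores that the authors rescaled so that each array has mean 8 and SD 2. The submitters' processing notes name Affymetrix Expression Console, and the genome build is not given in the sources used here. The 190 array controls were left out. Tests planned for log2 values were run on the scores as they stand. Arrays have no read depth, and their number limits the precision.

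Samples were grouped by the strain in their labels. Members and gene lists were chosen with earlier results of these data known. The lists hold 14 liver, 4 fat expansion, 8 lymphocyte, 8 interferon, 4 inflammatory fat, 7 glucocorticoid, 8 skeletal muscle, 7 brown fat, 5 kidney and 5 macrophage genes, with 12 serpins, 8 lipocalins, 8 proteases and 10 regulators, and the brightest probe set stood for a gene. Values of some list genes are not reported here. Each of the 8 fitted list means was a continuous covariate in limma 3.58.1 (lmFit and eBayes, two-sided, R 4.3.3) over the 34 BXD strains other than BXD70. Benjamini-Hochberg adjustment ran over all probe sets, those of the list included, with a threshold of 0.05. The shares of all probe sets called leave out the probe sets of the list itself. Permutation p-values came from numpy 2.4.6 (Python 3.11.15, two-sided, 100000 permutations, 12 relations), and the limma adjusted p served as their correction. Promoters were aligned with biopython 1.88. For the liver list the fit was tested on simulated data: of 200 probe sets with a slope of 1.5 SD, 100% were recovered with 11 false calls, and of 200 with 0.7 SD, 33% with 7 false calls.

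All members were counted. Those named are the members above background, the 10 widest gaps of BXD70, those past a threshold, the 5 widest ranges, the 5 widest and narrowest parental differences and the list genes; Mup10, Mup21 and the dim members named further were chosen after their values were seen. Alternatives were quantile normalization, centring on the median, ranks of a list, Alb alone, the list without Alb, a filter on dim probe sets, muscle as a covariate, other thresholds, other sets of arrays and each strain left out in turn.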

Additional observations from a re-analysis of the deposited data

How the results depend on the processing

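Of 321 alternatives over 12 results, 306 left the count or median much as it was, and 15 moved it. Counts were taken as moved beyond 1.5 times their value. The falls of the median range to 0.971 and 1.07 units, given below, were taken as moved too, though the latter is within 1.5 times. Neither quantile normalization, which shifted single values by 0.171 units at most, nor centring on the median moved any of the 12 results. The number of members above all 34 strains in BXD70 fell from 25 to 16 with a margin of at least 1 unit. The median range of the members fell from 1.52 to 0.971 units between the 5th and 95th percentile and to 1.07 units when the highest and the lowest strain were dropped. The 12 members that rose with the liver list became 21 with BXD70 and both parents included, where those arrays carry most of the spread of the list, and 3 without the 3 strains with the highest liver list, where the slopes of the Mup block were 2.08 to 3.90 units against 2.35 to 3.72 and that of Serpina1c 1.70 against 2.88. With each strain left out in turn, the liver count stayed at 12 and the fat expansion count at 2, the lymphocyte count ranged from 0 to 1 (1 without BXD48, BXD55, BXD66, BXD71, BXD87, BXD90, BXD95 or BXD101, each time Serpina3f), the inflammatory fat count from 0 to 1 (1 without BXD85) and the skeletal muscle count from 1 to 2 (2 without BXD65).

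One array per strain gives no replicate error, whether probe sets of close copies share probes was not tested, and values under the background limit of 7.94 carry little order. No paired analysis was possible because each strain has 1 array and the labels give no pairing between groups.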

Other observations

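The Mup cluster held further probe sets that the naming rule left out. LOC100861909, annotated as Mup-like, was at 9.01 in BXD70 and 9.20 in DBA/2J, against 5.46 in C57BL/6J and 5.04 to 6.56 in the 34 strains, so that DBA/2J was slightly the higher of the pair, as for Mup20. Gm2083 followed the Mup block, at 14.57, 14.30 and 11.02, with 8.35 to 11.69 in the 34 strains. The pseudogene probe set Mup-ps12 was at 6.25 in BXD70 and 5.74 in DBA/2J, against 5.09 in C57BL/6J and 4.64 to 6.22 in the 34 strains, all below background.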
